A study of Mus musculus with 66 samples.

Results

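The genes described here are 50 genes linked to autism that were not themselves depleted in the study and that encode neither channels nor core synaptic proteins. They were taken by gene symbol, without use of their measured levels. All 50 were found, each as 1 gene among the 30084 symbols in the table of counts, and all 50 passed the filter on low counts, among 16145 genes tested. The question was how the mRNA of these risk genes responded when 9 other autism-associated regulators of chromatin and transcription were lowered one at a time.

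Wildtype neurons were grown from e16.5 mouse embryos, in cultures from males and from females, and the labels do not name the brain region. Lentivirus delivered an shRNA, a hairpin RNA that directs the cell to degrade a matching mRNA, against Chd8, Med13l, Ash1l, Dnmt3a, Tbr1, Setd5, Kdm6b, Kmt2c or Mbd5, or a nontargeting shRNA, and further cultures received no virus. The virus was removed on day 6 in culture and RNA was taken on day 10, at doses meant to leave about 50% of each target. These 11 conditions in 2 sexes formed 22 groups of 3 libraries each, 66 libraries in all. The labels speak of triplicate wells and do not say that replicates were separate cultures, so the p-values measure the spread between these libraries, which may be in part technical. The labels do not say how many hairpins were used per target.

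Total counts ranged from 13759741 to 66558546 per library. The targets were left at between 22.3% and 54.3% of their nontargeting level in the 18 combinations of target and sex. In 2 libraries, labelled Setd5 shRNA male replicate 1 and Kdm6b shRNA male replicate 1, the target went against the label or was lowered little, and results were computed with and without them. The neuronal markers Tubb3, Map2, Snap25, Rbfox3 and Syt1 were detected in all 66 libraries, at a summed level of 4755 to 5414 CPM (the count relative to the library's scaled total) in the nontargeting libraries. The microglial marker P2ry12 was at 0 in 46 libraries, the oligodendrocyte marker Sox10 in 52 and the endothelial marker Cldn5 in 34.

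Autism risk genes fall into a few broad functions. Many encode proteins that bind DNA or histones and set which genes a neuron transcribes. Others act on translation, on protein turnover by ubiquitin, on kinase and small GTPase signalling such as the mTOR and Ras pathways, or on the adhesion molecules and cytoskeleton that shape axons and dendrites. In people most of these genes are known from loss-of-function mutations in a single copy, so the amount of their product is thought to matter. The 50 genes were grouped here into 17 DNA-binding and transcription regulators, 5 chromatin readers and corepressors, 7 genes of RNA, translation and the nuclear pore, 4 ubiquitin ligases, 10 kinases, phosphatases and GTPase regulators, and 7 adhesion, membrane and cytoskeleton genes.

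Outside the Chd8 and the Med13l knockdown few risk genes were called. Each knockdown was compared with the nontargeting libraries as the mean of the male and the female effect, 6 libraries against 6, with edgeR's quasi-likelihood test and Benjamini-Hochberg adjustment over all 16145 genes. A gene is called changed at an adjusted p under 0.05. Among 450 pairs of a member and a knockdown, 28 were called (6.22%, against 6.99% of such pairs over all genes tested), 22 of them lower and 6 higher, and 25 of the 28 came from the Chd8 and the Med13l knockdown. In such bulk libraries fewer cells of a type and less RNA per cell cannot be told apart. Called changes ran in size from 0.23 to 1.08 on the log2 scale, and 1 pair of the 450 exceeded 1. No change was called in any knockdown for 27 members (54%, against 55.5% of all genes). In 1 knockdown 19 members were called (38%, against 30.4%), in 2 knockdowns 3 members, Nup155, Trio and Foxp1 (6%, against 10.7%), and in 3 knockdowns Phf21a (2%, against 3.38% of all genes called in 3 or more).

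After Chd8 and Med13l knockdown the share of members called, higher and lower together, was close to the share of all genes called. After Chd8 knockdown 12 of 50 members (24%) were called, against 22.3% of all genes tested. The 3 members that rose stand beside 9.85% of all genes called higher, and the 9 that fell beside 12.5% called lower. After Med13l knockdown 13 of 50 (26%) were called, against 24.1% of all genes. Here 2 rose, beside 11.8% of all genes, and 11 fell, beside 12.3%. Of the 50 members, 1 was called after Ash1l knockdown (6.16% of all genes), 1 after Dnmt3a knockdown (1.4%), 1 after Tbr1 knockdown (1.33%), and none after knockdown of Setd5 (5.3%), Kdm6b (0.966%), Kmt2c (0.694%) or Mbd5 (0.663%). Those zeros rest on edgeR. DESeq2 also called no member after Setd5 (6.75% of all genes), Kmt2c (0.991%) or Mbd5 knockdown (1.13%) and 1 after Kdm6b knockdown (1.74%). By edgeR 5, 3, 4 and 4 members had an unadjusted p under 0.05 after Setd5, Kmt2c, Mbd5 and Kdm6b knockdown. The share of all genes under that unadjusted p was not computed, so these numbers are not read as a response of the members. Without the 2 libraries that go against their labels the Setd5 and Kdm6b counts stayed at 0. Leaving out single libraries moved some counts. The Med13l count was 7 without Med13l shRNA female replicate 1 and 8 without nontargeting female replicate 2. It was 19 without Med13l shRNA female replicate 2. The Ash1l count was 4 without Ash1l shRNA female replicate 2 and 2 without nontargeting female replicate 1, and the Dnmt3a count was 0 without Dnmt3a shRNA female replicate 1 and 2 without its female replicate 2. The Mbd5 count was 1 without Mbd5 shRNA female replicate 2, and the Setd5 count was 1 without nontargeting female replicate 2. The share of all genes called in these fits is not reported here, so the shifts are not read as particular to the members. A single test of any change in the 9 knockdowns against nontargeting shRNA called 29 of 50 members (58%), against 56.3% of all genes.

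**Figure D1:**
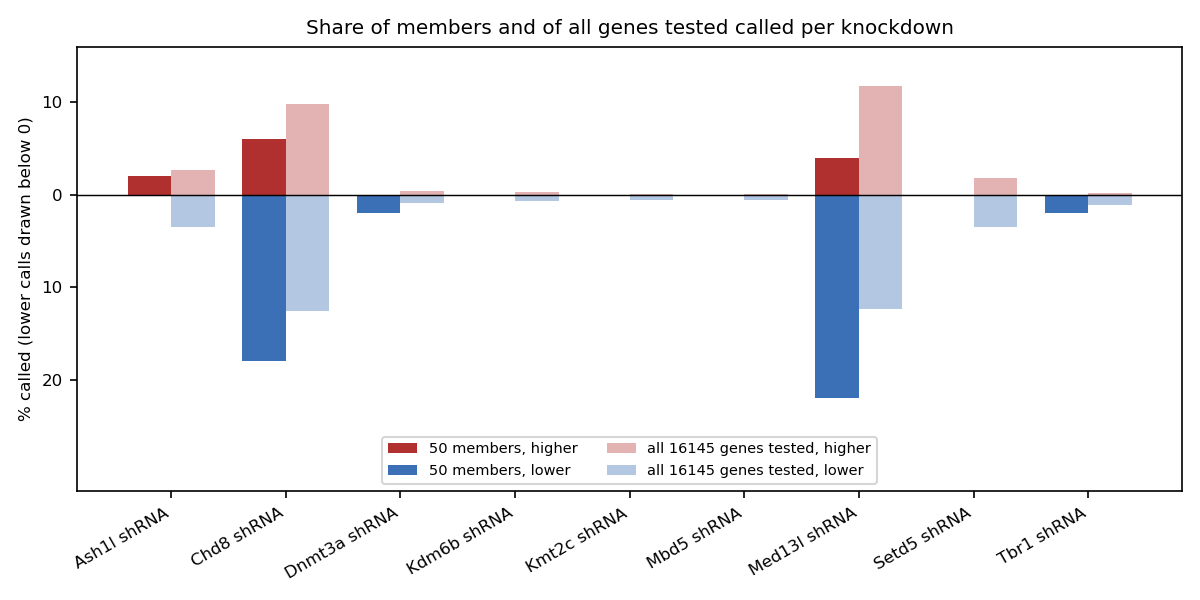
Share of the 50 members (dark bars) and of all 16145 genes tested (pale bars) called at an adjusted p under 0.05 in each knockdown, in percent, with genes called higher above the zero line and genes called lower below it. Members and all genes lie near each other in total, with 24% against 22.3% after Chd8 and 26% against 24.1% after Med13l knockdown, and the lower calls of the members extend further down in both.

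Replicate numbers are shared between groups, and libraries of the same number deviated together in 6 of the 9 knockdowns. With sex and number as a block in the model, the member counts in those 6 rose by more than 1.5 times. They became 21 after Chd8 knockdown (7 higher, beside 17.5% of all genes, and 14 lower, beside 19.4%, with 36.9% of all genes called), 3 after Dnmt3a (6.97%), 2 after Kmt2c (2.97%), 2 after Mbd5 (3.32%), 6 after Setd5 (16.2%) and 5 after Tbr1 knockdown (6.57%). In the Med13l knockdown, which is not among the 6, the block gave 27 members, with 41.5% of all genes called. Of these members 2 were higher, beside 20.6% of all genes, and 25 lower, beside 20.9%. The 28 calls of the model without the block were all kept in the model with it. Members called in these 6 only with the block were Fmr1, Qrich1, Lrrc4c and Ldb1 (higher) and Ank3, Cul3, Phf3, Ddx3x and Tsc2 (lower) after Chd8 knockdown, and Ski and Ptk7 (lower) after Dnmt3a knockdown. Taok1 and Tsc2 were added after Kmt2c knockdown (lower), and Zmynd8 (higher) and Tbl1xr1 (lower) after Mbd5 knockdown. After Setd5 knockdown they were Hdlbp, Trip12, Ank2, Tcf20 and Naa15 (higher) and Irf2bpl (lower), and after Tbr1 knockdown Irf2bpl, Ank3, Ank2 and Lrrc4c (lower). In what follows a gene is called, or not called, by the model without the block unless the block is named.

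**Figure D2:**
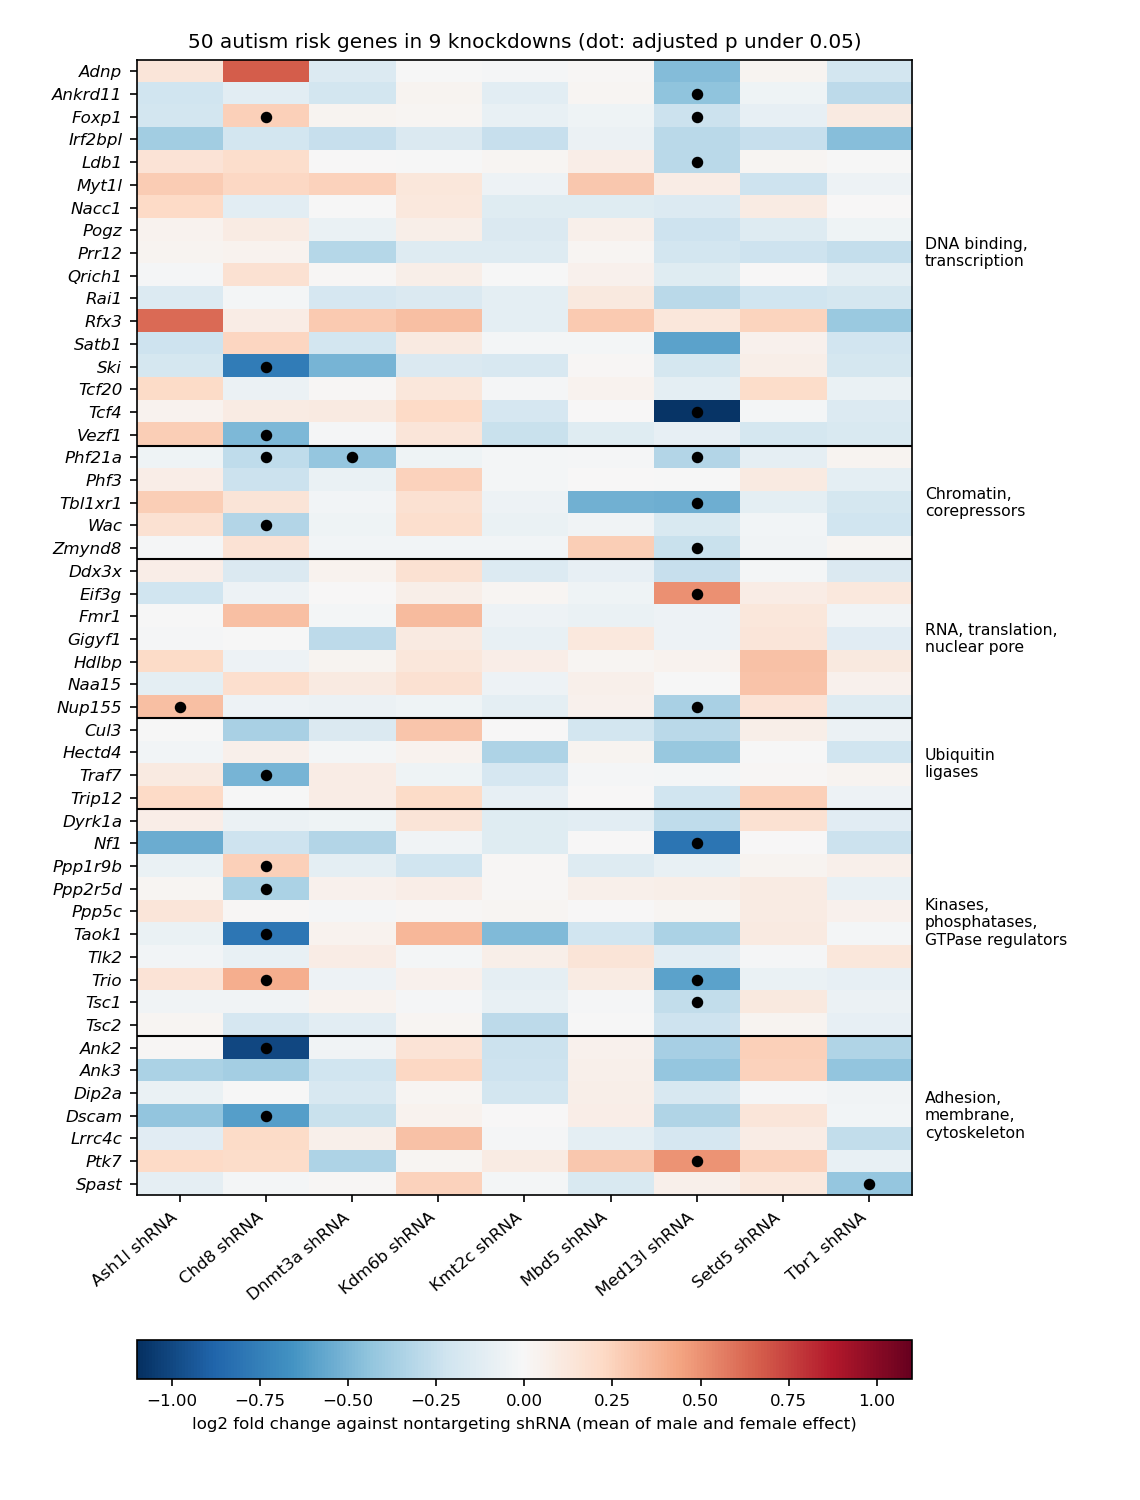
Log2 fold change of each of the 50 members (rows, grouped by role) in each knockdown (columns) against nontargeting shRNA, from blue (lower) to red (higher), with a dot where the adjusted p was under 0.05. Dots cluster in the Chd8 and Med13l columns, with 12 and 13 of the 28, and Phf21a is the row with 3. The dark red and blue cells of Adnp are not called and rest on few counts.

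The members spanned a wide range of levels. Per kilobase of exon, the highest mean levels in the 6 nontargeting libraries were 70.5 ± 10.9 CPM per kb (SD, n = 6) for the RNA helicase gene Ddx3x and 69.6 ± 3.63 for Ppp1r9b, which encodes the dendritic spine protein spinophilin. These 2 did not differ beyond their spread. The median member stood at 11.5 CPM per kb, and Nup155, a nuclear pore gene, was at 3.00 ± 0.226. Below it stood only Adnp, a homeobox transcription factor gene, at 0.132 ± 0.0666. The median count of Adnp was 23 per library, against at least 709 for each of the other 49 members, and 82.1% of its exonic bases are shared with Gm20716, an annotated gene on the same strand. Reads in shared bases can be left uncounted, so the level of Adnp is not used as a measure of its expression.

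Among the 17 DNA-binding and transcription regulators, Tcf4 had the largest called change of all members. Tcf4 encodes a basic helix-loop-helix transcription factor of developing neurons. Its level was 155, 215 and 351 CPM (lowest, median and highest of 6 libraries) after Med13l knockdown and 396, 447 and 602 CPM with the nontargeting shRNA. All 6 Med13l libraries lay below all 6 nontargeting libraries. The log2 fold change was -1.08 ± 0.158 (SE), with an adjusted p of 7.37e-07 by edgeR, and it was -1.13 in males and -1.02 in females. In the other 8 knockdowns Tcf4 was not called, with log2 changes from -0.19 to 0.22.

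Ski, a corepressor of TGF-beta signalling, was the transcription regulator with the largest call after Chd8 knockdown. It stood at 60.1, 80.3 and 109.5 CPM there against 115, 146 and 168 CPM in the nontargeting libraries, and the 2 sets did not overlap. Its log2 fold change was -0.77 ± 0.159, with an adjusted p of 0.000235 by edgeR. After Dnmt3a knockdown Ski reached 64.6, 95.3 and 137 CPM, with 4 of 6 libraries below all controls. That change was -0.51 ± 0.159, with an adjusted p of 0.101 by edgeR and 2.63e-07 with the replicate block. The zinc finger factor gene Vezf1 was also called lower after Chd8 knockdown, at -0.50.

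Foxp1, a forkhead factor gene singled out after its values were seen, moved one way after Chd8 and the other way after Med13l knockdown. Its levels were 73.2, 88.5 and 95.9 CPM after Chd8 knockdown, 49.5, 61.5 and 68.3 CPM after Med13l knockdown and 58.5, 72.4 and 80.3 CPM in the nontargeting libraries. The log2 changes were 0.27 and -0.23. Both sets overlapped the controls. The Chd8 call was lost without Chd8 shRNA female replicate 1 or nontargeting female replicate 1, and the Med13l call without any of 9 of the 12 libraries, the exceptions being nontargeting male replicate 1, nontargeting female replicate 1 and Med13l shRNA female replicate 2. Of the other transcription regulators, the LIM cofactor gene Ldb1 (-0.29) and Ankrd11 (-0.44), which encodes a partner of histone deacetylases, were called lower after Med13l knockdown. The remaining 11 members of the group were called in no knockdown, among them Myt1l, Satb1, Pogz, Tcf20 and Rai1. Satb1 had a log2 change of -0.59 after Med13l knockdown and Rfx3 one of 0.63 after Ash1l knockdown, and neither was called.

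Of the 5 chromatin readers and corepressors, Phf21a was the member called in the most knockdowns. Phf21a encodes a subunit of the LSD1-CoREST histone demethylase complex that binds unmethylated histone tails, and the gene lies at chr2:92093117-92364666 in the GRCm38 assembly. Its nontargeting level was 44.0, 51.3 and 56.1 CPM. After Dnmt3a knockdown it was 31.4, 38.2 and 42.6 CPM, below the controls in all 6 libraries. After Med13l knockdown it was 33.1, 41.0 and 45.0 CPM and after Chd8 knockdown 37.8, 41.6 and 47.1 CPM, with 4 and 5 of 6 libraries below all controls. The log2 fold changes were -0.43 ± 0.095 (adjusted p = 0.00884 by edgeR), -0.32 ± 0.095 (0.0096) and -0.28 ± 0.095 (0.027). These comparisons use the same 6 control libraries. In the other 6 knockdowns the changes lay between -0.09 and 0.03. The Chd8 call was the weakest of the 3 and was lost, with an adjusted p of at most 0.081 by edgeR, when any of 7 libraries was left out, namely Chd8 shRNA male replicates 1 and 2 and female replicate 1, nontargeting male replicates 2 and 3 and nontargeting female replicates 2 and 3. The Dnmt3a call was lost (adjusted p = 0.0732 by edgeR) without Dnmt3a shRNA female replicate 1, and the Med13l call (0.0631) without Med13l shRNA female replicate 1.

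In this group Tbl1xr1, a subunit of the NCoR corepressor complex, fell after Med13l knockdown (-0.53), as did the chromatin reader gene Zmynd8 (-0.25). Wac, an adaptor in histone ubiquitination, fell after Chd8 knockdown (-0.32). Phf3 was not called in any knockdown. The group had 3 of 5 members called lower after Med13l knockdown, beside 12.3% of all genes. All 5 were below 0, with a median log2 change of -0.25 against -0.01 over all genes tested. That median was not particular to the group. It was -0.22 over all 50 members, and in the other role groups it ran from -0.26 (ubiquitin ligases) to -0.05 (RNA, translation and nuclear pore). After Chd8 knockdown 2 of the 5 chromatin readers and corepressors were called lower, beside 12.5% of all genes, and 3 were below 0.

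Among the 7 genes of RNA, translation and the nuclear pore, Nup155 and Eif3g were the members called. Nup155, a scaffold protein of the nuclear pore, lies at chr15:8109273-8161247. It had 39.6, 44.4 and 49.8 CPM after Ash1l knockdown, 21.3, 28.8 and 32.1 CPM after Med13l knockdown and 31.9, 36.2 and 39.1 CPM in the nontargeting libraries. All 6 Ash1l libraries were above every control, and 5 of 6 Med13l libraries were below every control. The log2 change was 0.33 ± 0.082 after Ash1l knockdown, with an adjusted p of 0.00732, and -0.36 ± 0.082 after Med13l knockdown, with an adjusted p of 0.000801, both by edgeR. Nup155 was the single member called after Ash1l knockdown. After the same knockdown 3 of 4 inhibitory neuron markers fell (Gad1, Gad2 and Slc32a1), with a summed level of 537 to 820 CPM against 1011 to 1556 CPM in the controls, and their part in the result was not tested.

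Eif3g, a subunit of the translation initiation complex that recruits the ribosome, rose after Med13l knockdown. It had 86.4, 95.2 and 114.6 CPM against 63.8, 68.6 and 72.9 CPM, with no overlap. The log2 change was 0.50 ± 0.091, with an adjusted p of 3.64e-05 by edgeR. Eif3g and Ptk7 were the members that rose in that comparison. Fmr1, which encodes the RNA-binding protein lost in fragile X syndrome, was called in none. It had 62.6, 80.0 and 89.0 CPM in the nontargeting libraries, 72.4, 93.7 and 131 CPM after Chd8 and 69.0, 104 and 130.3 CPM after Kdm6b knockdown. Its log2 changes there were 0.33 ± 0.176 (adjusted p = 0.192 by edgeR) and 0.35 ± 0.176 (0.451), and in the other 7 knockdowns they lay between -0.07 and 0.13. With the replicate block the Chd8 value had an adjusted p of 0.00546 by edgeR. The highest Kdm6b level of Fmr1 was that of Kdm6b shRNA male replicate 1, 1 of the 2 libraries that go against their labels. Ddx3x, Gigyf1, Hdlbp and Naa15 were not called in any knockdown.

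The promoters of Phf21a, Nup155 and Trio are shown because these genes lie among the 4 members called in more than 1 knockdown. Each is the 250 bases before an annotated start of the gene, from RefSeq on GRCm38.p6, written 5′ to 3′ on the gene's strand. They lie at chr2:92185233-92185482 on the plus strand for Phf21a, chr15:8109063-8109312 on the plus strand for Nup155 and chr15:28025849-28026098 on the minus strand for Trio. Capitals mark matches, on either strand, to CCGGAAG (a core of ETS factor sites), GATGGCG (a YY1 core) or GGTGTGA (a T-box core).
Phf21a: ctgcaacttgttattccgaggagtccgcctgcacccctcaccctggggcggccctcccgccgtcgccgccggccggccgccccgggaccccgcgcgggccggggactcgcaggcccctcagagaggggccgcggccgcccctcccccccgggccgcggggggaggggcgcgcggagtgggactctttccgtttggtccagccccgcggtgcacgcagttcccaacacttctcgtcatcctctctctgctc
Nup155: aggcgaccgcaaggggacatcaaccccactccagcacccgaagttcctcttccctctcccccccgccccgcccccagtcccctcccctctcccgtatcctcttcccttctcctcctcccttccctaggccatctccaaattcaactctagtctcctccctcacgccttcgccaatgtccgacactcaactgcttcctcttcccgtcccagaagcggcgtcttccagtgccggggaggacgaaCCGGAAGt
Trio: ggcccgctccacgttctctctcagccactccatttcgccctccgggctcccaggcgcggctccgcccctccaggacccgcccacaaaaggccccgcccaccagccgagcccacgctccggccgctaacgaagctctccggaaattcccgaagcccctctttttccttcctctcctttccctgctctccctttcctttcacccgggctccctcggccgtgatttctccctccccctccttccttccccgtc
The Nup155 promoter held 1 ETS match, starting at base 243 of the 250, and the other 2 held no match to these letters. By the gene span given above, which starts at chr15:8109273, the end of the Nup155 window and its match lie inside the gene. For Phf21a the first of 2 entries is shown. Both lie inside the span of the gene given above, and the other, at chr2:92221222-92221521, held 1 CG pair in 300 bases. With the first 50 transcribed bases added, the 3 windows shown held, in 300 bases, 31 CG pairs for Phf21a, 23 for Nup155 and 28 for Trio. Promoter entries were given for 45 of the 50 members, 72 in all, with a median of 22 CG pairs against 7 over all 32851 promoters of that length. The ETS letters were found in 13.9% of the member promoters and 8.86% of all promoters, the YY1 letters in 6.94% and 3.49%, and the T-box letters in 6.94% and 3.98%. These shares describe letters in the windows, not binding.

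Among the 4 ubiquitin ligases, Traf7 was the only one called, and it had the smallest adjusted p of all members after Chd8 knockdown. Traf7 encodes a RING ligase in MAP kinase signalling. It had 58.6, 61.3 and 67.0 CPM after Chd8 knockdown against 80.6, 88.3 and 96.5 CPM, and all 6 libraries lay below all controls. The log2 change was -0.51 ± 0.082, with an adjusted p of 2.8e-06 by edgeR, and it was -0.51 in males and -0.52 in females. In the other 8 knockdowns it lay between -0.18 and 0.10. Cul3, Trip12 and Hectd4 were not called in any knockdown.

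The 10 kinases, phosphatases and GTPase regulators held calls in both directions. Taok1, a kinase that acts on microtubules and upstream of MAP kinases, had 95.6, 110.1 and 142 CPM after Chd8 knockdown against 156.5, 196 and 246 CPM in the controls. The sets did not overlap, and the log2 change was -0.80 ± 0.154, with an adjusted p of 8e-05 by edgeR. Ppp2r5d, a regulatory subunit of a major serine/threonine phosphatase, had 75.6, 96.5 and 105.5 CPM after Chd8 knockdown against 110.5, 120.1 and 128 CPM. All 6 libraries again lay below the controls, at a log2 change of -0.35 ± 0.075 and an adjusted p of 0.000303 by edgeR. Taok1 also stood at -0.48 ± 0.153 after Kmt2c knockdown, with an adjusted p of 0.181 by edgeR and 0.00367 with the replicate block.

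Trio, a guanine nucleotide exchange factor for the GTPases that steer axons, lies at chr15:27730651-28025848. It rose after Chd8 and fell after Med13l knockdown. It had 265, 289 and 348 CPM after Chd8 knockdown, 84.0, 161 and 177 CPM after Med13l knockdown and 163.5, 231 and 260.0 CPM in the controls. All 6 Chd8 libraries were above every control, and 3 of 6 Med13l libraries were below every control. The log2 change was 0.40 ± 0.125 after Chd8 knockdown (adjusted p = 0.0152 by edgeR) and -0.59 ± 0.126 after Med13l knockdown (0.000344). The Chd8 call was lost without nontargeting female replicate 1, at an adjusted p of 0.0732 by edgeR.

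Nf1, whose product neurofibromin switches off Ras, fell after Med13l knockdown. Its levels were 37.7, 100.8 and 125 CPM against 102, 166 and 204 CPM, with 3 of 6 libraries below all controls, and the log2 change was -0.81 ± 0.200 with an adjusted p of 0.00206 by edgeR. Tsc1 and Tsc2 encode the partners that hold mTOR in check. Tsc1 had 65.9, 90.5 and 101 CPM after Med13l knockdown against 87.4, 110.3 and 113.5 CPM, a log2 change of -0.27 ± 0.089 with an adjusted p of 0.0192 by edgeR, and the sets overlapped. That call was lost without Med13l shRNA male replicate 3, Med13l shRNA female replicate 1 or nontargeting female replicate 2, at an adjusted p of at most 0.124 by edgeR. Tsc2 had 97.6, 126 and 156 CPM in the controls and 65.2, 115 and 128 CPM after Med13l knockdown. It was called in no knockdown, with log2 changes from -0.29 after Kmt2c to 0.03 after Setd5 knockdown. With the replicate block Tsc2 was called lower after Chd8 (-0.18, adjusted p = 0.0477 by edgeR) and after Kmt2c knockdown (-0.28, 0.0205). Ppp1r9b rose after Chd8 knockdown (0.26), a call that was lost when any of 8 libraries was left out (nontargeting female replicates 1 and 2 and male replicates 1 and 2, Chd8 shRNA female replicates 2 and 3 and male replicates 1 and 3), with an adjusted p of at most 0.0884 by edgeR. Dyrk1a, Ppp5c and Tlk2 were not called in any knockdown.

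Among the 7 adhesion, membrane and cytoskeleton genes, Ank2 had the largest change after Chd8 knockdown. Ank2 encodes ankyrin-B, which ties membrane proteins to the spectrin skeleton, and lies at chr3:126921612-127499350. Its level was 272, 431 and 579 CPM after Chd8 knockdown against 581, 850.5 and 1181 CPM in the controls. All 6 libraries lay below all controls, the nearest pair by a small margin. The log2 change was -1.0 ± 0.184, with an adjusted p of 3.97e-05 by edgeR, and it was -0.99 in males and -1.01 in females. A model with the replicate block also called Ank2 after Setd5 (0.26, adjusted p = 0.0184 by edgeR) and after Tbr1 knockdown (-0.33, 0.0207), where the model without the block gave 0.48 and 0.6.

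Ank3, which encodes the ankyrin of the axon initial segment, had 274, 422 and 602 CPM in the nontargeting libraries. Its biological coefficient of variation, 0.248, was the highest of this group. It had 248, 336 and 408 CPM after Chd8 knockdown and 236.5, 331 and 390.0 CPM after Tbr1 knockdown. These log2 changes were -0.38 ± 0.206 and -0.43 ± 0.206, with adjusted p of 0.2 and 0.469 by edgeR, and 0.00505 and 0.0118 with the replicate block. Dscam, an adhesion molecule of axon guidance, fell after Chd8 knockdown (-0.61), and Ptk7, a receptor of planar cell polarity, rose after Med13l knockdown (0.49). Dip2a and Lrrc4c were not called in any knockdown.

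Spast, which encodes the microtubule-severing enzyme spastin, was the single member called after Tbr1 knockdown and had the smallest p of all members in the test across the 9 knockdowns. Its level was 120.0, 123 and 161.8 CPM after Tbr1 knockdown against 162.0, 176 and 183 CPM in the controls. All 6 libraries lay below all controls, and 1 of them nearly reached them. The log2 change was -0.43 ± 0.073, with an adjusted p of 0.000314 by edgeR. After Kdm6b knockdown Spast was higher than all controls in 6 of 6 libraries, at 184.5, 196 and 264.5 CPM. The highest of these was Kdm6b shRNA male replicate 1, 1 of the 2 libraries that go against their labels. The log2 change of Spast after Kdm6b knockdown was 0.25 ± 0.073 and was not called, with an adjusted p of 0.0864 by edgeR.

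**Figure D3:**
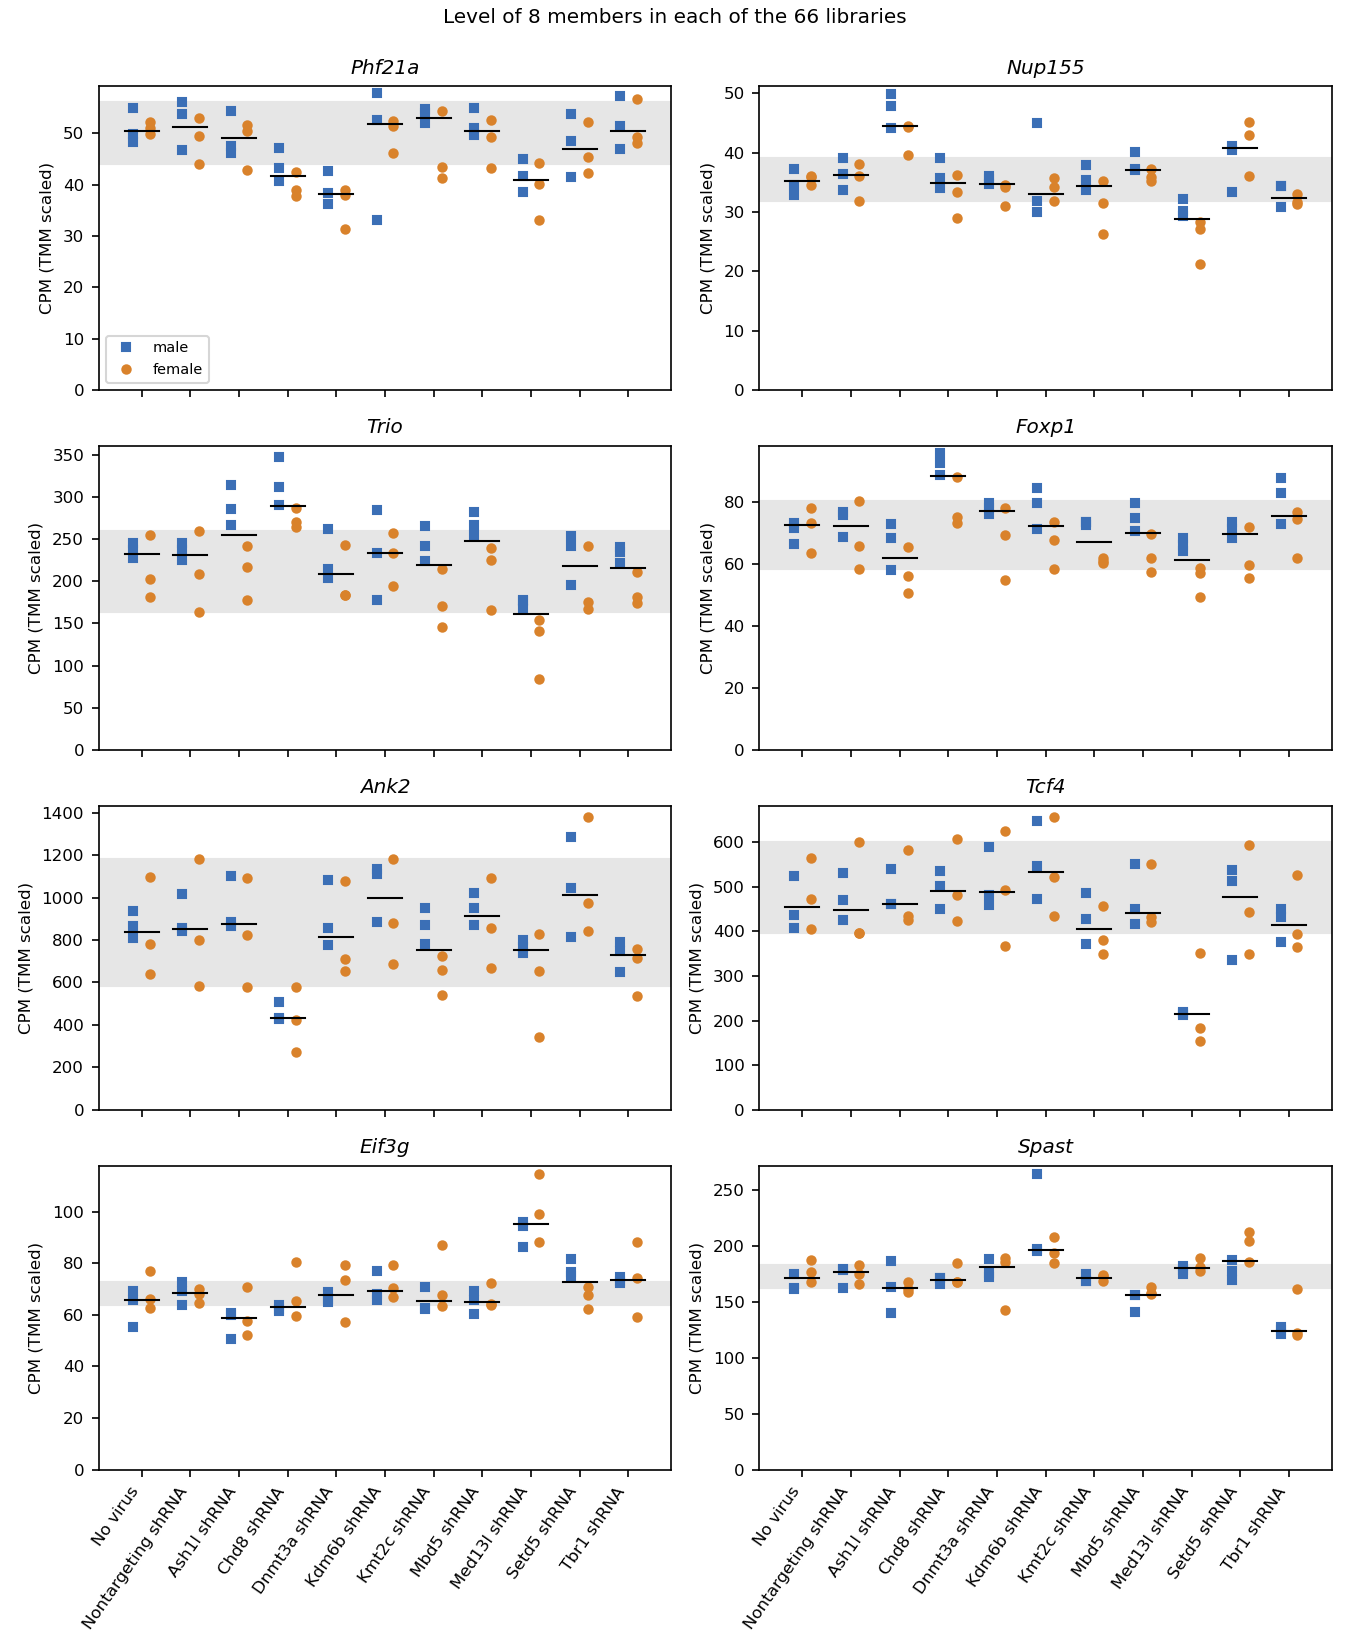
Level (CPM, scaled by library size) of 8 members in each of the 66 libraries, by condition, with squares for males, circles for females, a line at the median of 6 libraries and a grey band from the lowest to the highest nontargeting library. Every Chd8 library lies below the band for Ank2 and above it for Trio, every Med13l library lies below it for Tcf4 and above it for Eif3g, and every Dnmt3a library lies below it for Phf21a.

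Cell type markers moved with the 2 knockdowns that gave most calls, and some moved with other knockdowns too. After Med13l knockdown the summed neuronal markers were at 3557 to 4234 CPM, under the 4755 to 5414 CPM of the controls. Of the 5, Syt1 was called lower (-2.34) and the other 4 were not called. All 4 proliferation markers fell, with summed levels of 1.40 to 2.11 CPM against 3.07 to 8.08 CPM, as did 2 of 4 inhibitory neuron markers, 2 of 5 astrocyte and radial glia markers and 1 of 5 tested oligodendrocyte markers, and 1 of 4 excitatory neuron markers rose. After Chd8 knockdown 1 of 5 neuronal markers rose (Tubb3) and 2 fell (Map2 and Syt1), with a sum of 4153 to 4844 CPM. In that knockdown 2 of 4 excitatory and 2 of 4 inhibitory neuron markers fell as well, and 1 of 5 astrocyte markers (Gfap) and 1 of 3 tested endothelial and fibroblast markers (Dcn). The microglial sum stayed at or under 2.90 CPM in these conditions and the controls. Markers were called in other knockdowns as well. After Dnmt3a knockdown Gfap rose and Gad2 fell, after Setd5 knockdown Slc32a1, Ccnb1 and Top2a fell, and after Kdm6b knockdown Slc17a7 fell. After Ash1l knockdown Slc17a6 rose and Top2a fell, beside the inhibitory neuron markers given above. The part of the markers in the results was not tested.

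The Chd8 and Med13l knockdowns were also compared with each other, without the controls, a comparison added after the data had been seen. In it 21 of 50 members were called, against 36.9% of all genes, and 14 of the 21 were higher after Chd8 knockdown (18.1% of all genes) and 7 lower (18.8%). The 14 include Adnp, whose level is not used here. Trio was higher after Chd8 than after Med13l knockdown by 0.99 ± 0.126 on the log2 scale (adjusted p = 1.04e-08 by edgeR), and Foxp1 by 0.50 ± 0.084 (4.23e-06). Tcf4 differed by 1.17 ± 0.158 (4.56e-08). In the other direction the difference was -0.63 for Ank2, -0.49 for Traf7 and -0.56 for Eif3g. Phf21a, which was called lower in both against the controls, was not among the 21. Leaving out any 1 library of the 2 knockdowns kept the Trio and the Foxp1 difference called.

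The effects were also taken in each sex alone. After Chd8 knockdown 6 members were called in males (9.84% of all genes) and 5 in females (9.33%), and the 5 were among the 6. They were Ski, Traf7, Ppp2r5d, Taok1 and Ank2, with Vezf1 added in males. After Med13l knockdown Tcf4 and Eif3g were called in males (8.06% of all genes) and these 2 with Nup155, Nf1 and Trio in females (10.2%), and after Tbr1 knockdown Spast was called in males (0.217%) and no member in females (0.0619%). With a single sex no member was called after Ash1l (1.98% of all genes in males, 1.1% in females) or Dnmt3a knockdown (0.111% and 0.118%). The sign of the male and the female effect was the same for 44 of 50 members after Chd8 knockdown, against 81.8% of all genes, and for 42 of 50 after Med13l knockdown, against 80.5%. All 28 calls had the same sign in both sexes, but they were selected on the mean of the male and the female effect, which favours equal signs. The male effect minus the female effect, tested as an interaction by edgeR, was called for none of the 50 members in any knockdown, and none had an unadjusted p under 0.05. Over all genes 3 were called, all after Setd5 knockdown (0.0186%), and 0% in the other 8. DESeq2 also called none of the members.

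**Figure D4:**
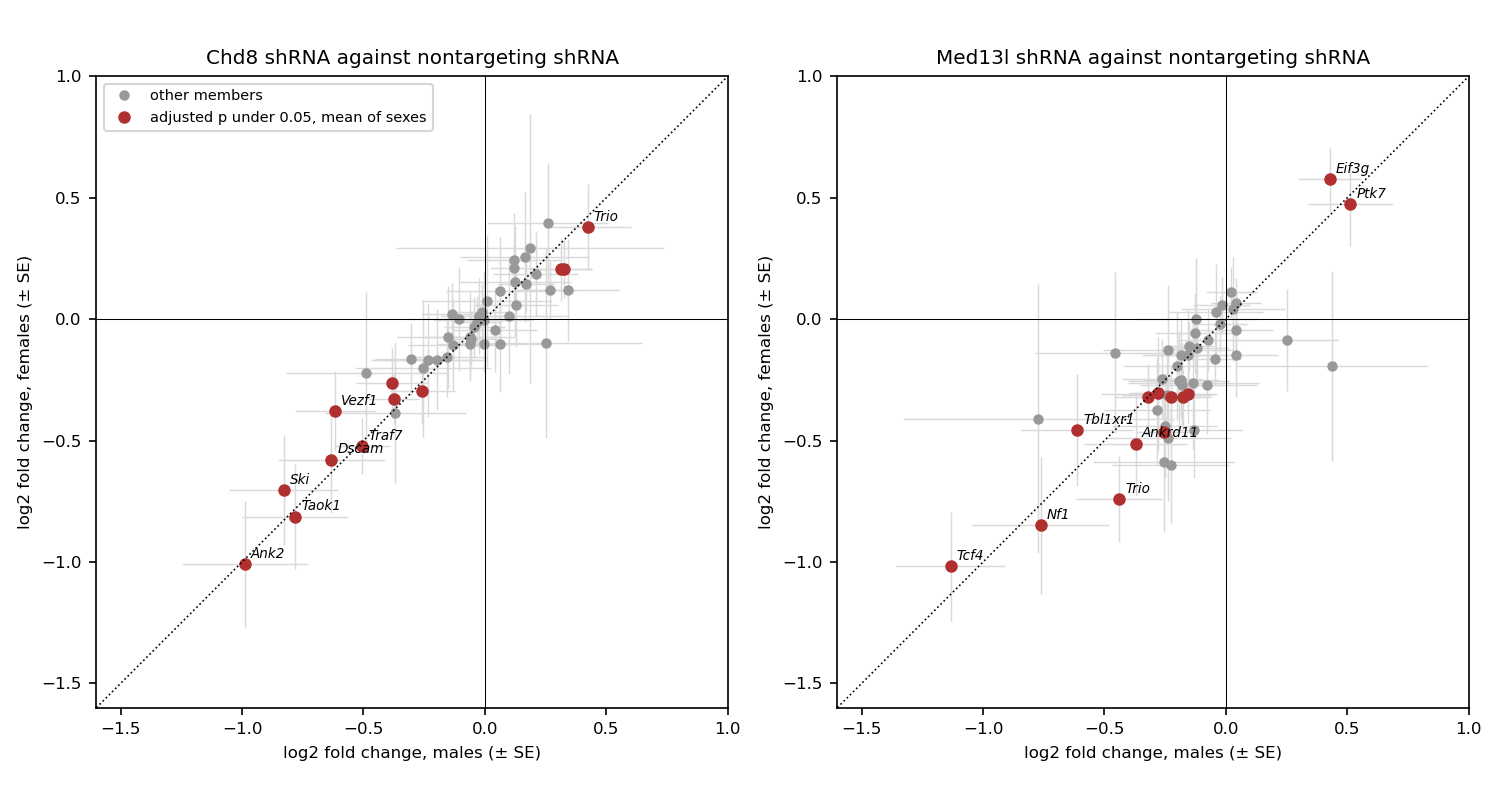
Log2 fold change in males (horizontal) against females (vertical), each with its standard error, for 49 members after Chd8 (left) and Med13l knockdown (right), with Adnp left out and the dotted line at equal effects. Members called in the mean of both sexes are red and named where the mean change was at least 0.4 in size. After Chd8 knockdown the called members run along the line from Ank2 at -0.99 and -1.01 to Trio at 0.42 and 0.38, with Vezf1 farther off at -0.62 and -0.38. After Med13l knockdown Trio, at -0.44 in males and -0.74 in females, and Nup155, at -0.26 and -0.47, lie farther off.

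The background of infection was measured in the same way. Between the nontargeting and the no virus libraries edgeR and DESeq2 called none of the 50 members and edgeR none of all 16145 genes (0%), and no member had an unadjusted p under 0.05. Apart from Adnp the largest difference was 0.15 on the log2 scale. Between male and female nontargeting libraries none of the 50 was called by either tool, against 0.0434% of all genes, and 1 had an unadjusted p under 0.05. That gene was the X-linked Ddx3x, at a male minus female difference of -0.35 ± 0.164 with an unadjusted p of 0.0409 by edgeR's test across all genes, which did not pass adjustment. X-linked Fmr1 differed by -0.02.

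The members were longer than most genes, in a comparison by length that was added after the data had been seen. Their median genomic length was 72.2 kb against 23.6 kb for all genes tested with a length (15762), and 64% against 28.9% spanned more than 50 kb. Over all genes the median log2 change after Med13l knockdown went from 0.08 in genes under 10 kb to -0.21 in those over 200 kb. The median of the members lay below that of all genes in every class, but the shortest classes hold few members. It was -0.05 against 0.08 under 10 kb (3 members), -0.12 against 0.05 from 10 to 20 kb (6 members) and -0.20 against -0.001 from 20 to 50 kb (9 members). The 13 members from 50 to 100 kb had -0.17 against -0.09. For the 8 members from 100 to 200 kb it was -0.26 against -0.14, and for the 11 members over 200 kb -0.33 against -0.21. The part of gene length in these values was not tested. Over all 50 members the median after Med13l knockdown was -0.22, with 42 of 50 below 0, against -0.01 and 51.1% of all genes. After Chd8 knockdown the median of all genes lay between -0.03 and 0.04 in every class, and that of the members was -0.03 over all 50. In the other 7 knockdowns the median of the members lay between -0.09 and 0.07. Below 0 were 40 of 50 members after Kmt2c knockdown, against 52.4% of all genes, and 39 of 50 after Tbr1 knockdown, against 50.3%. Fewer were below 0 after Kdm6b (14 of 50, against 49%), Setd5 (18, against 51%) and Mbd5 knockdown (20, against 50%). After Ash1l knockdown the number was 25, against 47.7%, and after Dnmt3a knockdown 31, against 49.7%. From genes under 10 kb to those over 200 kb the median of all genes went from 0.02 to -0.09 after Kmt2c and from 0.03 to -0.11 after Tbr1 knockdown. Between the same classes it went from -0.05 to 0.03 after Kdm6b and from -0.03 to -0.04 after Setd5 knockdown. After Mbd5 knockdown it went from 0.02 to -0.05, while the members over 200 kb had a median of 0.05. It went from 0.005 to -0.002 after Ash1l and from 0.005 to -0.03 after Dnmt3a knockdown.

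**Figure D5:**
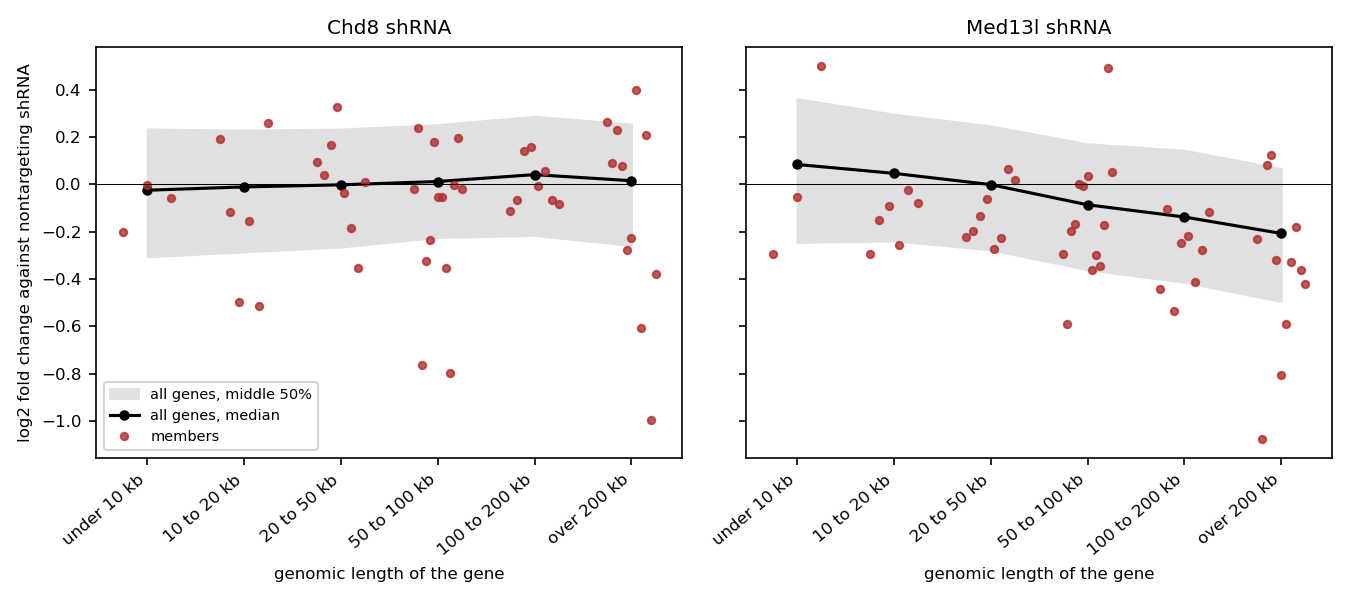
Log2 fold change of 49 members (red points, Adnp left out) by class of genomic length after Chd8 (left) and Med13l knockdown (right), with the median (black line) and the middle 50% (grey) of all genes in the class. After Med13l knockdown the median of all genes falls from 0.08 to -0.21 with length and most members lie below it, and after Chd8 knockdown the line stays near 0.

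Partners and closest relatives of the members were 72 genes, all of them tested. They had 18 calls after Chd8 knockdown (6 higher and 12 lower, 25% of 72, against 22.3% of all genes), 22 after Med13l knockdown (7 higher and 15 lower, 30.6% against 24.1%), 5 after Ash1l (2 higher and 3 lower, 6.94% against 6.16%), 5 after Setd5 (1 higher and 4 lower, 6.94% against 5.3%) and none after the other 5 knockdowns by edgeR. Among partners in a shared complex, the spectrin gene Sptbn1 fell with Ank2 after Chd8 knockdown (-1.24). The FMRP relative Fxr2 (-0.54), Gigyf2 (-0.41) and its cap-binding partner Eif4e2 (-0.40) fell after Chd8 knockdown, where Fmr1 and Gigyf1 were not called.

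After Med13l knockdown the NCoR subunits Ncor1 (-0.55) and Tbl1x (-0.38) fell with Tbl1xr1, and their deacetylase Hdac3 rose (0.18). In the mTOR list Mlst8 (0.40) and Tbc1d7 (0.55) rose, the latter being the third subunit of the complex of Tsc1 and Tsc2, and Eif4ebp1 fell (-1.03). In the N-terminal acetyltransferase list Naa10 (0.35) and Naa16 (0.40) rose, while the member Naa15 was not called. Close relatives moved in the direction of the member in some pairs. Kalrn fell with Trio (-0.83) and Tcf12 with Tcf4 (-0.42). In others the relative moved and the member was not called, as for Taok3 (-0.94) beside Taok1. Zmynd11 fell more (-0.95) than Zmynd8, a difference between the genes that was not tested. After Chd8 knockdown Ppp2r5c fell (-0.64) with Ppp2r5d.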

How the data were processed

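The authors deposited 1 table of read counts per gene, not normalized, made with STAR, featureCounts and mm10 per the submitters' processing notes. Versions, annotation and strand setting are not given in the sources used here. Rows without a symbol (0.69% to 1.41% of counts) were left out, rows repeating a symbol were summed and 6 library columns were not used. The control columns bear a luciferase name and were matched to the nontargeting label. Low counts were mostly even (26.7% odd from 1 to 20, 49.1% from 1000 up), so halved counts were tried.

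edgeR 4.0.16 under R 4.3.3 was applied to the counts (filterByExpr, TMM scaling, quasi-likelihood F test, 1 mean per group over 66 libraries), and DESeq2 1.42.0 was an alternative. Standard errors follow from the fold change and its F value. No libraries were near enough alike to be 1 library deposited again (chi-square per gene at least 7.92 within groups). CPM values were computed here on TMM-scaled library sizes. On simulated data, a Chd8 knockdown with 15973 genes, 39% of 100 genes changed by 0.5 (log2) and 80% of 100 changed by 1 were recovered.

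Replicate numbers were taken to pair libraries where the 6 correlations of deviations from group means between same-numbered knockdown and nontargeting libraries were all over 0.1, as in 6 of 9 knockdowns. Gene positions are from GENCODE M21 on GRCm38, which is mm10. Named in full were up to 5 called members per knockdown with the smallest adjusted p, members called in 3 or more knockdowns, the member with the smallest p across knockdowns in each role group, any member passing the interaction, virus or sex test (none did), and Fmr1, Tsc1, Tsc2, Adnp, Ank2 and Ank3. The members, lists and rules were chosen with earlier results of these data known. Alternatives were other scaling, no filter, each sex alone, no virus as control, a fit of the compared libraries alone, a replicate block and leaving out libraries. Values of some partner genes are not reported here.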

Additional observations from a re-analysis of the deposited data

How the results depend on the processing

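The 28 calls were set beside 10 other settings and the omission of each library, and none changed direction. TMM against the size factors of DESeq2's method, DESeq2 itself, halved counts and the replicate block kept all 28. Without the filter 3 were lost (Phf21a and Ppp1r9b after Chd8 and Foxp1 after Med13l knockdown), and 1 (Foxp1 after Med13l) without the 2 libraries that go against their labels. With no virus as control 26 were kept, with only the compared libraries in the fit 23, in males only 9 and in females only 10. Of the 28, 16 stayed called without any single library. Calls lost there and not named above were Wac after Chd8 knockdown (without Chd8 female replicate 1 or nontargeting female replicate 2), Ankrd11, Tbl1xr1 and Zmynd8 after Med13l knockdown (all 3 without Med13l female replicate 1 or nontargeting female replicate 2, among others for Ankrd11 and Zmynd8).

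Counts of members called, as males only, females only and with the replicate block, were 0, 0 and 15 for Ash1l, 6, 5 and 21 for Chd8, 0, 0 and 3 for Dnmt3a, 2, 5 and 27 for Med13l and 1, 0 and 5 for Tbr1. With the block the counts were 6 for Kdm6b, 2 for Kmt2c, 2 for Mbd5, 6 for Setd5 and 47 in the test across all 9 knockdowns. Over all genes the block called 17.2% for Ash1l, 7.86% for Kdm6b, 41.5% for Med13l and 79.4% across all 9. In Ash1l, Kdm6b and Med13l at least 1 of the 6 correlations was at or under 0.1, so by the rule used the numbers were not taken as pairs there, although 5, 4 and 5 of the 6 libraries correlated best with their own number. In the other 6 knockdowns all 6 did. Among the members called there only with the block were Rfx3 after Ash1l, Spast, Fmr1 and Lrrc4c after Kdm6b, and Satb1, Tsc2 and Trip12 after Med13l knockdown. DESeq2 gave 1 for Kdm6b, and a fit of the compared libraries alone gave 0 for Dnmt3a. The cause of these shifts was not tested. Leaving out 1 library each gave 1 to 4 for Ash1l, 9 to 12 for Chd8, 0 to 2 for Dnmt3a, 7 to 19 for Med13l, 0 to 1 for Mbd5, 0 to 1 for Setd5, 1 to 1 for Tbr1, 27 to 31 across all 9, and 0 throughout for Kdm6b, Kmt2c, the interaction, the virus and the sex comparison. The share of all genes called with 1 library left out is not reported here. No paired analysis was possible for the sex comparison because the block is nested in sex. The median change of the members after Kmt2c knockdown was -0.16 in females only and -0.01 without nontargeting female replicate 2, against -0.08. Depth limits Adnp, at a median of 23 counts.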
